A study of Mus musculus with 20 samples.

Results

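The 6 arrays of losartan-treated mouse lung, of 20 arrays in the series, were ranked by their signal for Dbp, a clock-driven transcription factor, and the 3 highest were set against the 3 lowest. The ranking used the log2 values of the authors' deposited table: Dbp stood at 13.78 on RA_Los 3, 13.68 on CS_Los 3 and 13.60 on RA_Los 2, against 11.20 on CS_Los 1, 10.50 on RA_Los 1 and 10.23 on CS_Los 2. The border of the ranking thus lay between 13.60 and 11.20. The arrays were chosen by a measured value, so every difference between these 3 Dbp-high and 3 Dbp-low arrays is a description and carries no p-value.

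The samples were whole lung from males of the inbred strain AKR/J, each profiled on 1 Illumina bead array. Exposure began at an age of 6 to 8 weeks. The CS_Los mice (3 arrays) breathed smoke of 2R4F reference cigarettes for 2 hours a day on 5 days a week and drank losartan at 0.6 g per litre, the RA_Los mice (3 arrays) breathed room air with the same drug, and the CS (7 arrays) and RA (7 arrays) mice breathed smoke or room air without it. The labels give the exposure as 6 to 7 weeks in one place and as 2 months in another. For the smoke of CS_Los and CS they give carbon monoxide at 350 ppm. Losartan blocks the angiotensin II type 1 receptor, and all 6 arrays ranked here carried it. They belonged to batch 1, as labelled, together with 3 CS and 3 RA arrays, while batch 2 held the other 4 CS and 4 RA arrays. The Dbp-high arrays were 1 CS_Los and 2 RA_Los samples and the Dbp-low arrays 2 CS_Los and 1 RA_Los samples, so smoke and room air stood on both sides. No time of day of tissue collection is given in the sources used here. The labels number the replicates without saying that each is a separate animal, so a p-value here measures the spread between samples, which may in part be technical.

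The losartan arrays had median probe signals between 57.2 and 72.3 and between 14162 and 15155 detected probes. Lung markers were high on all 6: Ager, a type 1 alveolar gene, lay between 13.62 and 13.75 on the Dbp-high arrays and between 13.20 and 13.42 on the Dbp-low arrays, in log2 normalized signal, the scale used from here on. Of the genes that were higher in CS than in RA, some followed the smoke labels of the losartan arrays and others did not. Cyp1a1, an enzyme induced by smoke through the aryl hydrocarbon receptor, passed detection on all 7 CS arrays and on none of the RA arrays (0 of 7), but on 1 of 3 CS_Los arrays (CS_Los 1, at 7.97) and 1 of 3 RA_Los arrays (RA_Los 2, at 5.22). Retnla, a resistin-like protein of smoke-exposed lung, lay at 10.87, 8.85 and 10.91 on CS_Los 1, 2 and 3 and at 9.46, 10.53 and 10.09 on RA_Los 1, 2 and 3. The CS arrays lay between 10.80 and 12.27 for Retnla and the RA arrays between 8.37 and 9.11. CS_Los 2 lay in the RA range for Retnla, and RA_Los 1, 2 and 3 lay above it. Retnlg, a related gene of neutrophils, did follow the labels, at 8.43, 7.43 and 6.62 on CS_Los 1, 2 and 3, against 5.69, 6.06 and 5.96 on RA_Los 1, 2 and 3. S100a8, a neutrophil calcium binder, did so too, at 12.70, 12.24 and 10.76 on CS_Los 1, 2 and 3, against 9.59, 10.49 and 10.38 on RA_Los 1, 2 and 3. The groups are named by their labels throughout.

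The circadian clock is a feedback loop of transcription factors that runs in most cells, lung included. BMAL1 (gene Arntl) and its partners CLOCK and NPAS2 activate the Per, Cry and Nr1d genes and Dbp through E-boxes. The PER and CRY proteins then block that activation, and the nuclear receptors encoded by Nr1d1 and Nr1d2 (REV-ERB alpha and beta) repress Arntl and Nfil3 through ROR elements. DBP, TEF and HLF activate and NFIL3 represses further genes through D-boxes. In rodent tissues Arntl is known to peak when Dbp and Nr1d1 are low.

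A feature was called separated where all 3 Dbp-high arrays lay above, or all below, all 3 Dbp-low arrays and the means differed at least 2-fold. Of 12718 features other than Dbp, 67 were separated, 37 higher (0.291% of all) and 30 lower (0.236%) on the Dbp-high arrays. Without the fold minimum, 749 features (5.89%) lay wholly higher and 773 (6.08%) wholly lower. Of the 67, 62 had a gene name and 50 were detected on all 6 arrays. The rule of no overlap makes the sign the same within CS_Los and within RA_Los, so that sameness is no finding. Where 3 values are given for a side without array names, they run CS_Los 3, RA_Los 2, RA_Los 3 on the Dbp-high side and CS_Los 1, CS_Los 2, RA_Los 1 on the Dbp-low side. The plot of clock genes by array shows the values behind the next paragraphs.

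**Figure D1:**
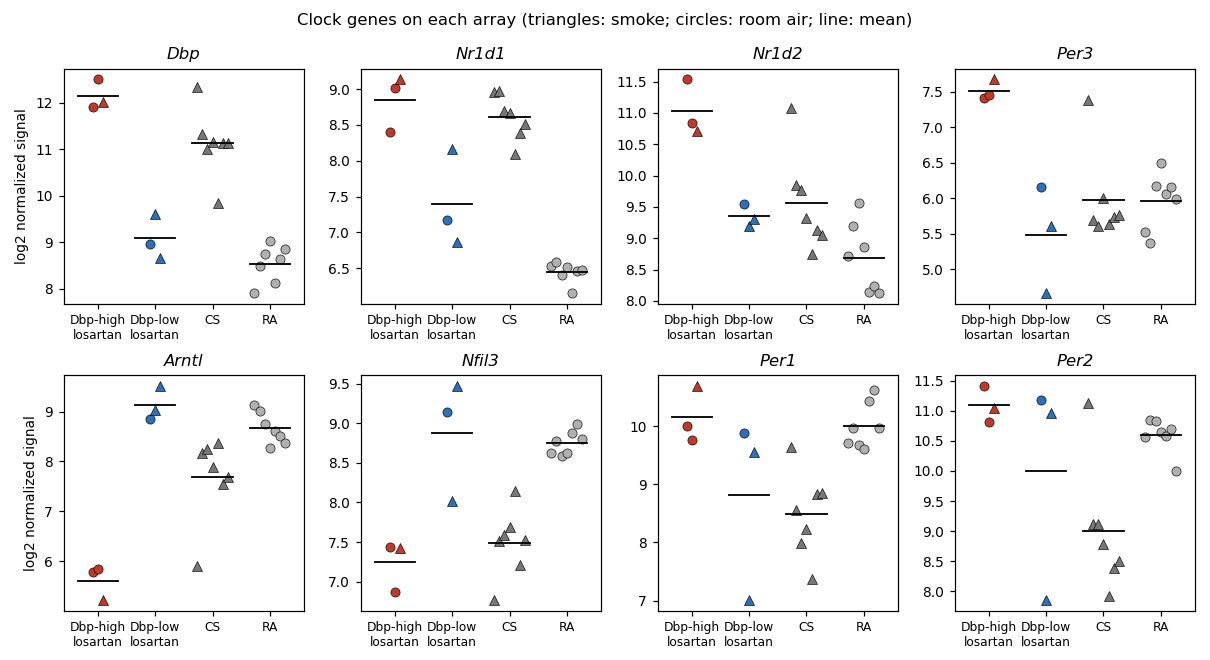
Log2 normalized signal of 8 clock genes on each array, with the Dbp-high and Dbp-low losartan arrays and then the CS and RA arrays; triangles are smoke, circles room air and lines group means. Arntl is at 5.84 or less on the Dbp-high arrays and at 8.85 or more on the Dbp-low arrays, while Per1 and Per2 overlap between these sides.

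Arntl, the gene of BMAL1 (chr7:113178471-113314126 in GRCm38.p6), had the largest difference of all separated genes. It stood at 5.23 on CS_Los 3, 5.78 on RA_Los 2 and 5.84 on RA_Los 3, the Dbp-high arrays, against 9.03 on CS_Los 1, 9.51 on CS_Los 2 and 8.85 on RA_Los 1, the Dbp-low arrays. Its mean was 5.61 ± 0.34 on the Dbp-high arrays and 9.13 ± 0.34 on the Dbp-low arrays (SD, n = 3 each), a log2 difference of -3.52, or 11.4-fold lower on the Dbp-high arrays. The difference was -4.04 within CS_Los and -3.04 within RA_Los. Its partner Clock differed by -0.58, without overlap, but a dimmer second probe of Clock differed by -0.23 and overlapped. Npas2, the other partner, was detected on 0 Dbp-high and 2 Dbp-low arrays and was at least 1.27-fold lower on the Dbp-high arrays. Rora, an activator of Arntl, overlapped between the sides, with a difference of 0.37. Thus 3 of the 4 measured genes of the activating limb lay wholly lower on the Dbp-high arrays. Npas2 did so by values near background, under detection on the Dbp-high arrays and in part on the Dbp-low arrays, and Clock on its brighter probe only. Over all features 6.08% lay wholly lower.

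The repressing limb went the other way. By the brightest probe of each gene, 5 of its 10 measured genes lay wholly higher on the Dbp-high arrays, 0 wholly lower and 5 overlapped. Of all features 5.89% lay wholly higher. Per3, a period gene (chr4:150997018-151044707), read 7.67, 7.41 and 7.45 on CS_Los 3, RA_Los 2 and RA_Los 3, against 4.67, 5.62 and 6.17 on CS_Los 1, CS_Los 2 and RA_Los 1. That was a log2 difference of 2.03. CS_Los 1 was its lowest array and did not pass detection, so this size rests in part on a value near background. Nr1d2, encoding REV-ERB beta (chr14:18204056-18239106), read 10.70, 11.54 and 10.84 on the same Dbp-high arrays, against 9.19, 9.30 and 9.55 on the Dbp-low arrays, a difference of 1.68. Nr1d1, encoding REV-ERB alpha (chr11:98767932-98775377), read 9.14, 8.41 and 9.02 on the Dbp-high arrays, against 8.16, 6.87 and 7.17 on the Dbp-low arrays, a difference of 1.45. Among the Dbp-low arrays, CS_Los 1 was nearest to the Dbp-high arrays for Nr1d1 and farthest from them for Per3. The second probe of Nr1d1 and that of Nr1d2 did not overlap either, at 1.91 and 1.57. Cry2, a cryptochrome, differed by 0.70 and Bhlhe40, a repressor of E-box genes, by 0.57, both without overlap. Ciart (0.45) and Csnk1d (-0.15), of the same limb, overlapped on their brightest probes. A dimmer probe of each was higher without overlap, at 0.99 for Ciart and 0.50 for Csnk1d, while the other dimmer probes of Csnk1d overlapped.

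On their brightest probes Per1 and Per2 did not separate the sides. Per2 read 11.05, 11.41 and 10.81 on CS_Los 3, RA_Los 2 and RA_Los 3, against 7.86, 10.97 and 11.19 on CS_Los 1, CS_Los 2 and RA_Los 1. Per1 read 10.68, 9.998 and 9.76 on the Dbp-high arrays, against 7.01, 9.55 and 9.89 on the Dbp-low arrays. For both, CS_Los 1 stood far below the other 5 arrays, which lay within 1 log2 unit of each other for Per2. The differences within RA_Los were -0.07 for Per2 and -0.01 for Per1, and within CS_Los 1.64 and 2.41. A second, dimmer Per1 probe had a similar difference (1.19) but did not overlap. That of Per2 overlapped, with a difference of 1.28. Of the genes fixed as marks of clock state, Nr1d1 followed the Dbp ranking and Per2 did not, so the sides are called by Dbp and not as clock-high and clock-low.

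Of the 13 measured clock output genes, 4 lay wholly higher and 1 wholly lower on the Dbp-high arrays, and 8 overlapped. The shares over all features were 5.89% wholly higher and 6.08% wholly lower. Tef, the D-box activator (chr15:81802673-81826863), read 9.45, 9.88 and 9.99 on CS_Los 3, RA_Los 2 and RA_Los 3, against 8.23, 8.97 and 8.62 on CS_Los 1, CS_Los 2 and RA_Los 1, a difference of 1.17. Nfil3, the D-box repressor (chr13:52967209-52982878), read 7.43, 7.44 and 6.87 on the Dbp-high arrays, against 8.02, 9.47 and 9.14 on the Dbp-low arrays, a difference of -1.64. The factors that act on the D-box thus stood apart in opposite directions, while Hlf, another D-box activator, was near the detection limit and differed by -0.01. Rev1 (0.73), a DNA polymerase, Herpud1 (0.58), a protein of the endoplasmic reticulum membrane, and Fmo2 (0.44), a monooxygenase of lung, lay higher without overlap. Usp2 (1.14), a ubiquitin protease, and Wee1 (0.41), a mitotic kinase, overlapped, with CS_Los 1 again the lowest array of both. Dimmer second probes of Tef (0.68) and of Herpud1 (0.44) overlapped.

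The promoter windows of the separated clock genes show where the letters of the clock motifs stand. RefSeq windows in GRCm38.p6, from 250 bases before to 50 after a listed start of the gene, were found for 26 of the 33 named higher genes and 21 of the 29 named lower genes. The first listed window of each gene was used. Each was searched on both strands for an E-box (CACGTG), a D-box (TTANGTAA), the core of a ROR element (AGGTCA) and a cyclic AMP element (TGACGTCA), none of which contains another. Per3 holds a pair of D-boxes, Tef an E-box, and Nr1d2 and Nfil3 a ROR core. In Nfil3 it is on the opposite strand and reads TGACCT. These 4 windows are shown 5′ to 3′ on the strand of the gene, with the matched letters in capitals. They lie at chr4:151044616-151044915 (minus strand) for Per3, chr15:81802423-81802722 (plus) for Tef, chr14:18239057-18239356 (minus) for Nr1d2 and chr13:52980990-52981289 (minus) for Nfil3. The listed starts of Tef and Nr1d2 are the outer ends of the gene spans given above. That of Per3 lies a little inside its span, and the whole Nfil3 window lies inside the span of Nfil3.
Per3: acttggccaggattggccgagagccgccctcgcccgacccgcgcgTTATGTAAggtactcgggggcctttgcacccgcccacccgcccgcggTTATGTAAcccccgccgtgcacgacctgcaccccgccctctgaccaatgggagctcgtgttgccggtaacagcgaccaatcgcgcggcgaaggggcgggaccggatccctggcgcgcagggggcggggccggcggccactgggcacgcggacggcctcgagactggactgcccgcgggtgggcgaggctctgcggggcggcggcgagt
Tef: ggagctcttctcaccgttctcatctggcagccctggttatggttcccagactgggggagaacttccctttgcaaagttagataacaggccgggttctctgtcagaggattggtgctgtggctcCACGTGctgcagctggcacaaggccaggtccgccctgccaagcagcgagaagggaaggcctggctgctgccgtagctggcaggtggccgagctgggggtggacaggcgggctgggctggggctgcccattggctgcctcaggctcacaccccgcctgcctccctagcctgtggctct
Nr1d2: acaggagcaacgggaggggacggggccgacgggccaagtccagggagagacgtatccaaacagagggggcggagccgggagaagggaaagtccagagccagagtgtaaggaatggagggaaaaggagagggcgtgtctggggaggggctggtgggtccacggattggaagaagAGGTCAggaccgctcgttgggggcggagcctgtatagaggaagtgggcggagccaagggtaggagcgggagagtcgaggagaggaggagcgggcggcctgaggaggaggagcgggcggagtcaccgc
Nfil3: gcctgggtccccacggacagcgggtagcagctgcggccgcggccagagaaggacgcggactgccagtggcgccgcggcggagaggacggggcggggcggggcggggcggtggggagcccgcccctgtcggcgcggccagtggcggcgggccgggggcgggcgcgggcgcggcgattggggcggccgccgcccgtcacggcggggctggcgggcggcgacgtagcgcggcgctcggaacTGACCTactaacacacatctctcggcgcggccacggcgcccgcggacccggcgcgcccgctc
The D-boxes of Per3 begin at positions -205 and -158 from the listed start, the E-box of Tef at -127, and the ROR cores of Nr1d2 and Nfil3 at -77 and -12. For Nfil3 this start is not the outer end of the gene. The windows of Arntl and Nr1d1 hold none of the 4 motifs, which says only that these letters are not in these 300 bases. Across all 27025 gene windows, 7.24% held the E-box, 2.34% the D-box, 16.04% the ROR core and 1.88% the cyclic AMP element. Among the separated genes the E-box was in 4 of 26 windows of higher genes and 1 of 21 of lower genes, the D-box in 1 and 1, the ROR core in 2 and 4, and the cyclic AMP element in 0 and 0. The matches are a description of sequence and not a sign of binding.

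Beyond the clock lists, the genes that lay lower on the Dbp-high arrays included secreted and signalling proteins. Spon2, a secreted matrix protein of innate immunity (chr5:33213518-33218254), read 7.41, 8.01 and 8.16 on CS_Los 3, RA_Los 2 and RA_Los 3, against 11.11, 10.77 and 10.28 on CS_Los 1, CS_Los 2 and RA_Los 1. Its means of 7.86 ± 0.40 on the Dbp-high and 10.72 ± 0.42 on the Dbp-low arrays (SD, n = 3 each) differed by -2.86, or 7.28-fold, second to Arntl. Adm, the gene of the vasodilator adrenomedullin, read 5.08, 5.35 and 5.20 on the Dbp-high arrays, against 7.46, 7.49 and 6.85 on the Dbp-low arrays, a difference of -2.06. Avpr1a, the vasopressin 1a receptor, read 5.66, 5.58 and 5.79 on the Dbp-high arrays, against 7.01, 7.84 and 7.40 on the Dbp-low arrays, a difference of -1.74. For Spon2, Adm and Avpr1a the gap between the sides was wider than the spread within either. Rasl11a, a small GTPase of the Ras family, differed by -1.67 with less spread, at 7.38 to 7.76 on the Dbp-high and 9.15 to 9.37 on the Dbp-low arrays.

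The Il1b and Cdkn1a genes were also separated, but with a wide Dbp-low side. Il1b, the gene of interleukin 1 beta, read 7.89, 7.35 and 7.17 on the Dbp-high arrays, against 8.50, 10.19 and 8.26 on CS_Los 1, CS_Los 2 and RA_Los 1. CS_Los 2 stood well above the rest, and the separation of Il1b did not hold without it. Cdkn1a, the cell cycle inhibitor p21, read 9.33, 8.99 and 8.64 on the Dbp-high arrays, against 9.57, 11.26 and 10.46 on the Dbp-low arrays, a difference of -1.44. Mmp3, a matrix metalloprotease, differed by -1.19, with CS_Los 2 again highest at 10.33, and was not separated without it. Hc, the gene of complement C5, differed by -1.35 and was not separated without CS_Los 3. Rsad2, the antiviral protein viperin, differed by -1.87, and Irf7 and Cxcl10, also interferon-stimulated, by -0.84 and -0.49 without overlap, though Cxcl10 passed detection on only 1 Dbp-high array. Of the 13 measured interferon-stimulated genes 4 lay wholly lower, 0 wholly higher and 9 overlapped, with a list median of -0.11, against -0.01 over all features. The list median was -0.43 within CS_Los but 0.14 within RA_Los. Of all features 6.08% lay wholly lower and 5.89% wholly higher. Gbp5 and Slfn5, which are not on this list, were separated in the higher direction.

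**Figure D2:**
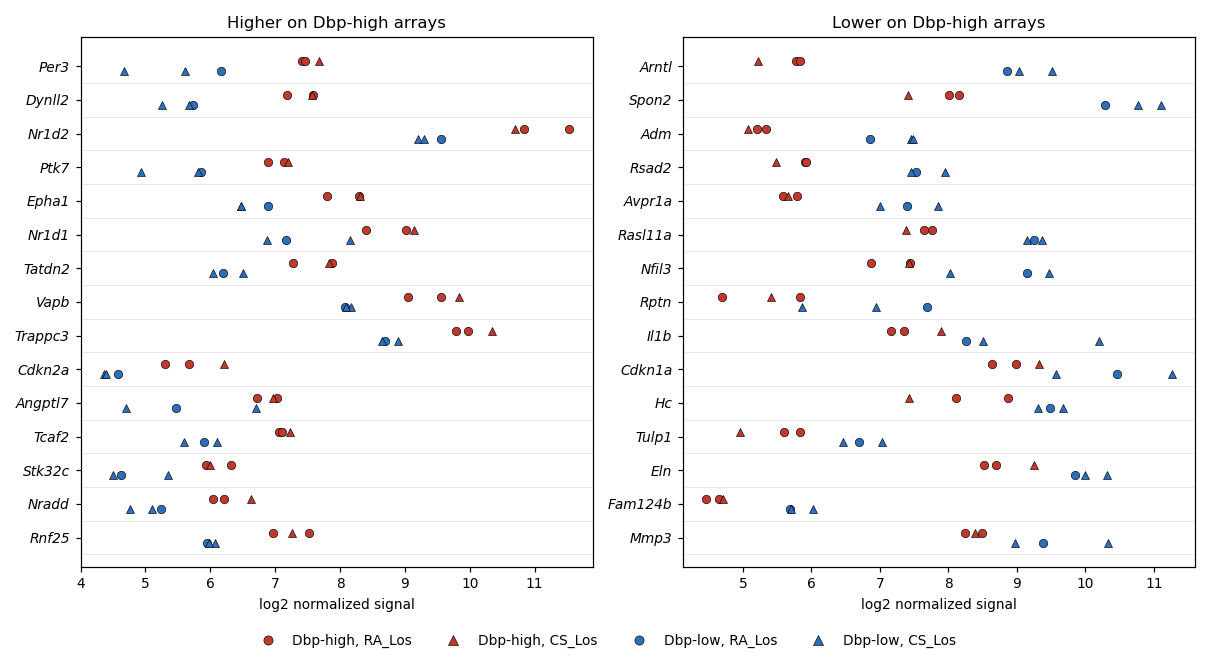
Log2 normalized signal of the 15 separated genes with the highest and the 15 with the lowest difference, on the 3 Dbp-high arrays (upper points of each row) and the 3 Dbp-low arrays (lower points). The sides are drawn as chosen and do not overlap in any row, and Arntl and Spon2 show the widest gaps.

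Of the 13 measured genes of the collagen and matrix list 5 lay wholly lower on the Dbp-high arrays, 1 wholly higher and 7 overlapped, with a median of -0.30. Over all features 6.08% lay wholly lower and 5.89% wholly higher. Eln, elastin, read 9.26, 8.52 and 8.70 on CS_Los 3, RA_Los 2 and RA_Los 3, against 9.99, 10.32 and 9.84 on CS_Los 1, CS_Los 2 and RA_Los 1, a difference of -1.23. Lox, the lysyl oxidase that crosslinks elastin and collagen, differed by -1.15 and was separated too, with CS_Los 2 highest at 10.64, but not without CS_Los 2. Loxl1, another lysyl oxidase, differed by -0.73 and Adamtsl4, a fibrillin-binding protein, by -0.83, both without overlap. Mfap4, a microfibril protein, went the other way, at 0.62.

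Among the higher genes outside the clock, several belong to intracellular traffic. Dynll2, a dynein light chain, read 7.56, 7.58 and 7.18 on CS_Los 3, RA_Los 2 and RA_Los 3, against 5.25, 5.68 and 5.73 on CS_Los 1, CS_Los 2 and RA_Los 1, a difference of 1.89. Vapb, a membrane protein of the endoplasmic reticulum, differed by 1.37, with all 3 Dbp-low arrays between 8.08 and 8.17. Trappc3, a subunit of the TRAPP vesicle tether, differed by 1.29. These genes were picked by the size of their difference and make up no list that was tested. Epha1, an ephrin receptor, read 8.31, 7.80 and 8.29 on the Dbp-high arrays, against 6.47, 6.47 and 6.88 on the Dbp-low arrays, a difference of 1.52. Ptk7, a receptor of Wnt signalling, differed by 1.54, and Angptl7, an angiopoietin-like protein, by 1.28. Each of these passed detection on 2 of the 3 Dbp-low arrays, and Angptl7 was not separated without CS_Los 1. Tatdn2, a nuclease of the TatD family, differed by 1.42.

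Of the separated features, 5 of the higher were detected on 0 Dbp-low arrays and 1 of the lower on 0 Dbp-high arrays, so their difference is a bound. For the bound, the dim side was raised on each array to the faintest signal that passed detection there, where the gene itself was fainter. Cdkn2a, the cell cycle inhibitor p16, was detected on all 3 Dbp-high arrays and on 0 Dbp-low arrays and was at least 1.66-fold higher. Fam124b was detected on 0 Dbp-high and 3 Dbp-low arrays and was at least 1.87-fold lower. These dim genes carry less weight than the bright clock genes.

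Vessel genes differed by small amounts. Of the 13 measured endothelial genes 3 lay wholly higher on the Dbp-high arrays and 10 overlapped. The share wholly higher over all features was 5.89%. Pecam1, an adhesion molecule of endothelium, differed by 0.71, Eng, a co-receptor of the TGF-beta family, by 0.45 and Kdr, a receptor of vascular endothelial growth factor, by 0.34. Hmox1, heme oxygenase 1, read 6.79, 6.45 and 6.29 on the Dbp-high arrays, against 5.73, 5.76 and 5.05 on the Dbp-low arrays, a difference of 1.00 that fell just under the 2-fold rule. In whole lung, fewer cells of a type and less RNA per cell cannot be told apart. Agtr1a, which encodes the receptor that losartan blocks, overlapped, at 7.56, 7.29 and 7.10 on the Dbp-high arrays, against 7.73, 7.56 and 7.42 on the Dbp-low arrays. Of the 7 measured renin-angiotensin genes 1 lay wholly lower, Enpep (glutamyl aminopeptidase, -0.43), and 6 overlapped. With 6.08% of all features wholly lower, 1 gene of 7 is not read as a result about the list.

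Heat shock genes overlapped between the sides, while 3 immediate early genes lay wholly lower on the Dbp-high arrays. Hspa1a, an inducible heat shock protein, read 8.66, 8.49 and 7.17 on CS_Los 3, RA_Los 2 and RA_Los 3, against 5.57, 10.05 and 11.57 on CS_Los 1, CS_Los 2 and RA_Los 1. The Dbp-low side held both the highest and the lowest array. All 17 measured heat shock genes overlapped between the sides, with a median of 0.09 within CS_Los and -0.76 within RA_Los. Fos, an immediate early gene, read 9.14, 9.73 and 8.89 on the Dbp-high arrays, against 9.63, 12.02 and 11.88 on the Dbp-low arrays. It overlapped, with CS_Los 1 within the range of the Dbp-high arrays. Egr1, of the same class, differed by -1.08 and was separated, but not when RA_Los 1, RA_Los 3 or CS_Los 2 was left out. Of the 15 measured immediate early genes 3 lay wholly lower, 0 wholly higher and 12 overlapped. The share wholly lower over all features was 6.08%.

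**Figure D3:**
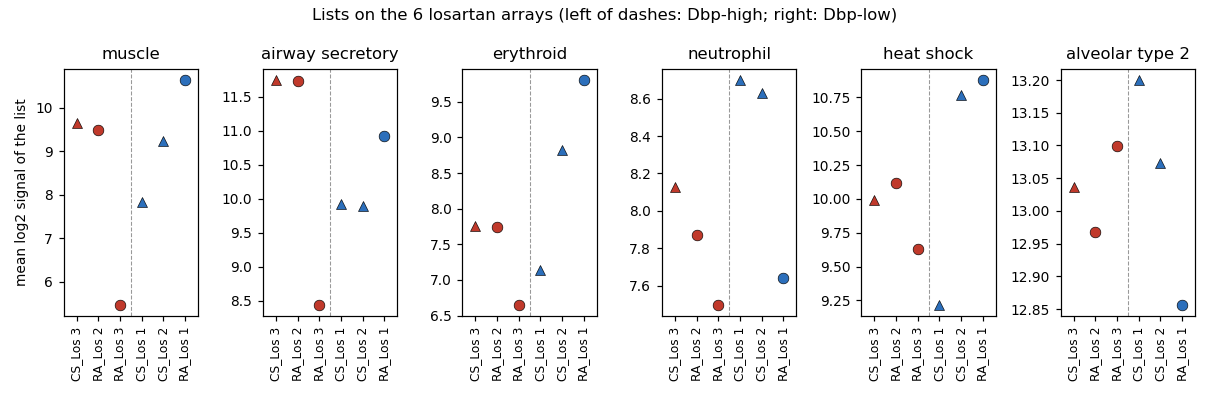
Mean log2 signal of 6 gene lists on each of the 6 losartan arrays, Dbp-high arrays left of the dashed line and Dbp-low arrays right of it; each panel has its own axis range. RA_Los 3 is lowest for the muscle and airway secretory lists, and in every panel the sides overlap.

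Other cell types in the tissue sample also varied from array to array. The muscle list, 16 measured heart and skeletal muscle genes, averaged 9.64, 9.50 and 5.47 on CS_Los 3, RA_Los 2 and RA_Los 3, against 7.83, 9.23 and 10.64 on CS_Los 1, CS_Los 2 and RA_Los 1. RA_Los 3 had 7 of the 16 genes detected, and CS_Los 1 had 12. The airway secretory list averaged 11.75, 11.73 and 8.44 on the Dbp-high arrays, against 9.92, 9.90 and 10.93 on the Dbp-low arrays, with RA_Los 3 again lowest. Bpifa1, a secretory protein of upper airways, read 4.36 on RA_Los 3, 13.31 on CS_Los 3 and 13.10 on RA_Los 2. All 16 muscle and all 12 airway secretory genes overlapped between the sides. The erythroid list averaged 7.76, 7.75 and 6.65 on the Dbp-high arrays, against 7.13, 8.83 and 9.81 on the Dbp-low arrays and overlapped in all 5 measured genes. The neutrophil list averaged 8.13, 7.87 and 7.50 on the Dbp-high arrays, against 8.70, 8.63 and 7.64 on the Dbp-low arrays, and 12 of its 13 genes overlapped. The exception was Il1b. S100a8 was highest on CS_Los 1 (12.70) and CS_Los 2 (12.24). The part of these cell types in the separated genes was not tested, and without RA_Los 3 the number of separated features was 119, of which 60 were among the 67.

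**Figure D4:**
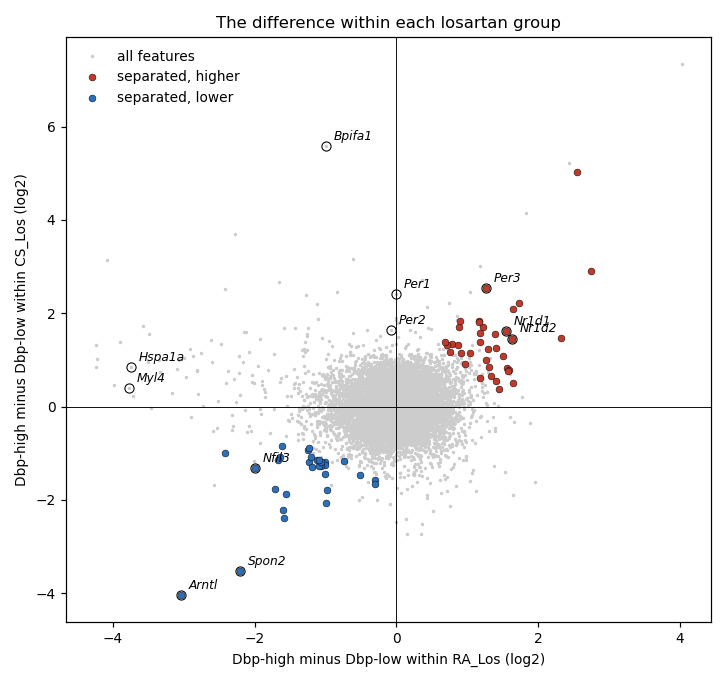
Log2 difference of Dbp-high minus Dbp-low arrays within RA_Los (x axis) and within CS_Los (y axis) for all features, with separated features coloured. Separated features lie in the lower left and upper right by construction, while Hspa1a, Myl4, a muscle myosin, and Bpifa1 have opposite signs within the 2 groups.

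The 14 CS and RA arrays took no part in the ranking and allowed a test of which genes follow Dbp. In a limma fit of each feature on Dbp, with a mean for each group in each batch, 0 of 12718 features (0%) passed a Benjamini-Hochberg adjusted p of 0.05. The smallest adjusted p was 0.914, and 665 features had an unadjusted p under 0.05. The fit left 9 residual degrees of freedom, and Dbp varied by a SD of 0.484 within the cells, far less than between the losartan sides. The highest and lowest statistics included Nr1d2, at a slope of 0.66 ± 0.13 (SE), Arntl, at -0.91 ± 0.20, and Nfil3, at -0.45 ± 0.11, in log2 units per 1 log2 unit of Dbp. None of these passed by limma (adjusted p 0.914 for Nr1d2 and 0.919 for Arntl and Nfil3). Others among the 5 highest and 5 lowest were Wee1 (0.54) and Bst2 (0.76), an antiviral membrane protein, and Rec8 (-0.74), a cohesin of meiosis, and Plac8 (-0.49), of which none was separated in the losartan arrays.

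As a description, 64 of the 67 separated features had a slope of the same sign as their losartan difference, 36 of the 37 higher and 28 of the 30 lower. Over all features the sign was the same for 53.8%. The median slope was 0.32 for the higher and -0.27 for the lower features, against 0.00 over all. This rested in part on CS 1: without it 50 of the 67 kept the sign (26 and 24), against 52.9% over all features, and the medians were 0.09 and -0.14.

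CS 1, a smoke-exposed sample without losartan, had clock values like those of the Dbp-high arrays. Arntl was 5.91 on CS 1 and between 7.55 and 8.37 on the other 6 CS arrays. Per3 was 7.38 on CS 1, with the next CS array at 6.01, and Spon2 was 8.36, with the next at 10.48. Per2 was 11.12 on CS 1 and at most 9.12 on the other CS arrays, so that CS 1 was high for Dbp and Per2 at once, as were the 3 Dbp-high arrays. CS 1 had the highest value of the 7 CS arrays for 11 of the 37 higher features, a share close to the 26.7% of all features for which it was highest. It had the lowest value for 16 of the 30 lower features, against 24.4% of all features. RA 4, the RA array with the highest Dbp (9.03), had the highest value of the 7 RA arrays for 11 of the 37 higher features, against 9.17% of all features, and the lowest for 6 of the 30 lower features, against 10.8%. RA 1, with the lowest Dbp (7.90), was highest for 2 of the 37, against 15.8%. RA 7, next after RA 4 in Dbp (8.86), was highest for 9 of the 37, against 16.7%. Other arrays did not all go by Dbp. RA 3 (8.74) was highest for 1 of the 37, against 21.3%, and RA 5 (8.13), next above RA 1, for 5, against 11.2%. CS 2, next after CS 1 in Dbp (11.33), was highest for 1 of the 37, against 12.9%, and lowest for 0 of the 30, against 11.9%. CS 5, the CS array with the lowest Dbp (9.84), was highest for 7 of the 37, against 10.1%. Among the RA arrays Dbp lay between 7.90 and 9.03 and Arntl between 8.26 and 9.13, near the Dbp-low values.

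Smoke against room air was compared over the same 14 arrays with batch as a term, to see which separated genes also differ with smoke in mice without losartan. By limma 1631 of 12719 features passed an adjusted p of 0.05, 775 higher (6.09%) and 856 lower (6.73%) in CS. Of the 37 features higher on the Dbp-high arrays, 6 were higher and 1 lower in CS. Of the 30 lower features, 0 were higher and 13 lower in CS, and 47 of the 67 did not pass. Dbp itself was higher in CS by 2.60, so Dbp and smoke cannot be told apart by the labels of these arrays.

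Nr1d1 had the largest smoke difference of the separated genes. It lay between 8.10 and 8.98 on CS arrays and between 6.15 and 6.59 on RA arrays, a log2 difference of 2.17 ± 0.10 (SE, limma adjusted p 3.37e-09), with 2.37 in batch 1 and 2.02 in batch 2. Nr1d2 rose by 0.87 ± 0.20 (adjusted p 0.00843, 1.07 and 0.72 within batches 1 and 2). Nfil3 fell by 1.26 on the log2 scale (adjusted p 3.34e-05, -1.37 and -1.18) and Cdkn1a fell by 1.67 (adjusted p 1.57e-05, -1.90 and -1.497). Arntl differed by -0.97 ± 0.30 (adjusted p 0.0409), with -1.52 in batch 1 and -0.56 in batch 2. Its call was lost when any 1 of 8 arrays was left out (adjusted p up to 0.0842), and without CS 1 its difference was smallest, at -0.63, with an adjusted p of 0.00243. Epha1 rose by 0.83 (adjusted p 0.00408) and Avpr1a fell by 0.79 (adjusted p 0.0206).

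The losartan contrast and the smoke comparison parted for other clock genes. Per1 fell by 1.498 on the log2 scale in CS (limma adjusted p 0.00178, -1.05 in batch 1 and -1.83 in batch 2). Per2 fell by 1.60 (adjusted p 0.00163, -0.96 and -2.07). In the losartan contrast both overlapped on their brightest probes, while the dimmer Per1 probe was higher without overlap (1.19). Per3 differed by 0.01 between CS and RA (adjusted p 0.982), with 0.54 in batch 1 and -0.39 in batch 2. Spon2 differed by 0.07 (adjusted p 0.91), but without CS 1 it was higher in CS by 0.39 (adjusted p 0.0118). Its losartan difference was -2.86. Hspa1a, at -4.24 the largest fall in CS, overlapped between the Dbp sides. Of the features that rose in CS other than Dbp, 435 of 774 had a positive losartan difference (median 0.05), and of those that fell, 610 of 856 had a negative one (median -0.14), against a median of -0.01 over all features.

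**Figure D5:**
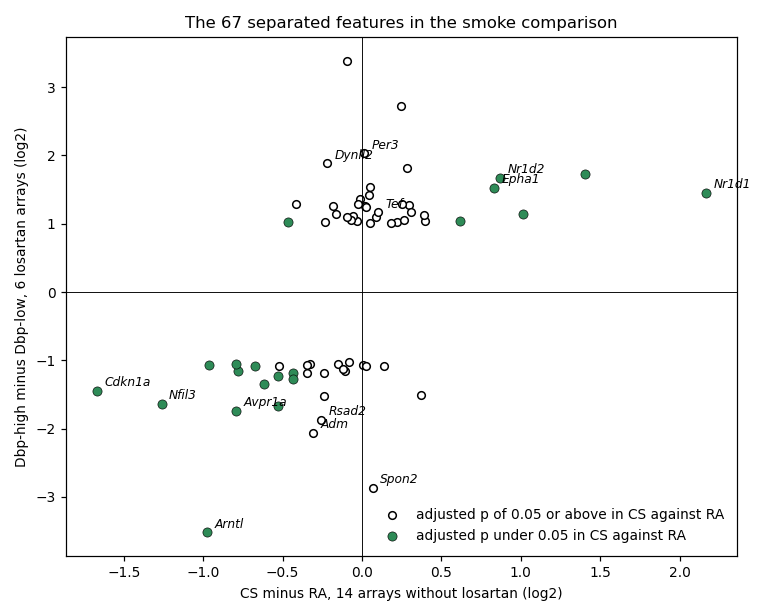
The 67 separated features by their log2 difference of CS minus RA over 14 arrays without losartan (x axis) and of Dbp-high minus Dbp-low losartan arrays (y axis); filled points passed an adjusted p of 0.05 in CS against RA. Nr1d1 and Cdkn1a lie far from 0 on both axes, while Per3, Dynll2, Adm and Spon2 lie near 0 on the smoke axis.

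The labelled groups of the losartan arrays were compared as well, since smoke cuts across the Dbp sides. In the fit of the 12 batch 1 arrays, 0 of 12719 features (0%) passed between CS_Los and RA_Los by limma, with a smallest adjusted p of 0.624 and 680 features at an unadjusted p under 0.05. The highest statistics included Retnlg, a resistin-like protein of neutrophils, at 1.59 ± 0.35 (SE, adjusted p 0.679), and the lowest Mpp5, a cell polarity protein, at -1.05 ± 0.18 (adjusted p 0.624). Both overlapped between the Dbp sides.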

How the data were processed

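Total RNA of whole lung was amplified, labelled with biotin and hybridised to Illumina bead arrays, per the labels' protocols. Per the file headers, the deposited signals are non-normalized intensities, linear and 1 per probe and array. They were made with BeadStudio, per the submitters' processing notes. A deposited detection p-value for every probe and array stands beside its signal and was paired with it by column order. The authors' deposited log2 table equals the log2 signal shifted to an array median of 8 (largest difference 0.0065). It gave the Dbp ranking and an alternative. 

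The 25697 probes were background-corrected by nec of limma (offset 16), quantile-normalized over 20 arrays and put on the log2 scale. Those detected (p under 0.05) in 3 or more arrays stayed in (17012, 66.2%). The brightest kept probe stood for each gene, which gave 11196 named genes and 1523 unnamed probes. R 4.3.3 and limma 3.58.1 (lmFit, eBayes, Benjamini-Hochberg) were used and tested on simulated data. The highest Spearman correlation between arrays was 0.978. The number of arrays limits the precision.

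The named genes are the 15 highest and 15 lowest separated genes, the clock lists, up to 5 members of other lists by size of difference, the highest and lowest genes of the fits, and Agtr1a. The members, lists and tests were chosen with earlier results of these data known. The CS_Los arrays and the arrays of batch 2 were numbered anew here, since their titles carry other numbers. Same-numbered CS and RA replicates, which also share a number in their titles, did not deviate together (correlations from -0.344 to 0.00955). The numbers were thus not taken as pairs. The CS_Los and RA_Los titles share no numbers, so a pairing of these groups could not be checked. The alternatives covered normalization, background, the deposited log2 values, probe filters, the ranking gene, the fold minimum, covariates and each array left out.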

Additional observations from a re-analysis of the deposited data

Results flagged for a closer look

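In 26 sets of 7 arrays (13 genes in CS and in RA), 7 values stood apart from the rest of their group by a gap beyond Dixon's critical value, which chance passes in about 1 of 20 groups, and 6 of the 7 were on CS 1. On CS 1 Arntl was 5.91 (next CS array 7.55), Adm 4.97 (next 6.47), Avpr1a 5.29 (next 6.46) and Spon2 8.36 (next 10.48), the lowest of the CS arrays. On the same array Per2 was 11.12 (next 9.12) and Per3 7.38 (next 6.01), the highest of the CS arrays. RA 7 was the lowest RA array for Per2, at 10.01 (next 10.56). The 13 genes are chosen clock and separated genes and Hspa1a, so the sets are not independent. The 6 flags on CS 1 are therefore not 6 separate events.

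Of the 53 clock, separated and receptor genes compared within both losartan groups, Csnk1e, a casein kinase of the clock, moved in opposite ways. Its Dbp-high minus Dbp-low difference was 0.43 within CS_Los and -0.26 within RA_Los, and every pair of arrays within a group had that sign. Genes without overlap between the sides, all separated genes included, could not show this, so the 53 say little about how rare it is. A dimmer second probe of Csnk1e differed by 0.12 over the 6 arrays and overlapped. This difference between the groups was not tested.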

How the results depend on the processing

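The 67 separated features (37 higher, 30 lower) became 27 (16 and 11) with the deposited log2 values, 29 (14 and 15) without background correction and 316 (167 and 149) at a minimum of 1.5-fold; all 27 and all 29 were among the 67. With 75th percentile centring there were 49 (23 and 26). Ranking by Nr1d1 gave the same sides and the same 67. Ranking by Per2 gave 105 features (95 and 10), of which 0 were among the 67, and turned the sign of Rptn (0.48) and Egr1 (0.22). Leaving out each array gave from 57 (without CS_Los 2) to 180 (without CS_Los 1), and fewer arrays make an overlap rarer. Without RA_Los 1, 2 or 3 there were 105, 103 and 119. Nr1d1, Nr1d2, Arntl, Nfil3, Spon2, Adm, Avpr1a, Rsad2, Rasl11a, Cdkn1a, Eln, Epha1, Dynll2, Vapb and Trappc3 were separated under all 13 settings counted, which leave out the ranking by Per2 and the 1.5-fold minimum. These 13 are not independent checks. Ranking by Nr1d1 could change nothing, and the probe filters only decide which probes stay in. Leaving out an array can change the fold but cannot make an overlap. The ranking by Per2 moved some arrays to the other side. A feature without overlap between the Dbp sides must overlap after such a move. That 0 of the 67 were kept was thus fixed in advance and is no check of them. Of the named genes, Tef and Angptl7 were not separated without CS_Los 1, Il1b, Lox and Mmp3 without CS_Los 2, Hc without CS_Los 3, and Egr1 without RA_Los 1, RA_Los 3 or CS_Los 2. With the deposited log2 values Lox, Mmp3, Egr1, Angptl7, Ptk7, Cdkn2a and Fam124b were not separated.

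The Dbp slope kept 0 calls under the other alternatives, but with the replicate number as a block 1 feature passed (lower). CS against RA gave 83 calls in batch 1 alone and 701 in batch 2 alone, with fewer arrays each, and 1333 with the replicate block. Leaving out each array gave from 1194 to 1918. CS_Los against RA_Los kept 0 calls under every alternative run, the replicate block included. For CS_Los that block used the numbers given here, which are not those of the titles. Signal over background limits the dim genes, such as Npas2, Hlf, Cdkn2a and Fam124b.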

Other observations

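Transcripts of cold-inducible RNA-binding proteins were not separated by the ranking. Rbm3, which rises as cells cool, read 10.60, 10.28 and 9.96 on CS_Los 3, RA_Los 2 and RA_Los 3, against 10.19, 8.40 and 9.06 on CS_Los 1, CS_Los 2 and RA_Los 1. Cirbp, of the same family, read 8.15, 7.81 and 8.26 on the Dbp-high arrays, against 9.28, 6.77 and 7.09 on the Dbp-low arrays. For both genes CS_Los 1 lay apart from the other Dbp-low arrays, on the side of the Dbp-high arrays, and Cirbp was highest there. By limma both were higher in CS than in RA, by 1.03 for Rbm3 and 1.61 for Cirbp. Mesothelial genes overlapped in all 8 measured members, with Msln, a surface protein of mesothelium, at 9.07, 9.04 and 9.10 on the Dbp-high arrays, against 9.11, 8.52 and 7.93 on the Dbp-low arrays.

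Housekeeping lists were close to 0. The median difference was -0.01 over 16 ribosomal protein genes and -0.02 over 23 proteasome genes, of which 2 lay wholly higher. Of all features 5.89% did so.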
